A study of Mus musculus with 6 samples.

Results

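Transcripts of 8 genes that keep cells alive were followed in 6 mouse osteosarcomas: 5 BCL2-type survival genes (Bcl2, Bcl2l1, Bcl2l2, Mcl1 and Bcl2a1b) and 3 inhibitor of apoptosis (IAP) genes (Xiap, Birc2 and Birc3). The genes were taken by name from a fixed list, through gene IDs matched to symbols. All 8 were found among the 56196 genes counted. Of these 8, 7 had enough reads to be tested, among 15361 tested genes in all, and Bcl2a1b did not.

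The tumours fell into 2 groups of 3, and total RNA from about 100 mg of fresh tumour was selected for polyadenylated transcripts and sequenced. The first group, triple knockout (TKO), combined Osx1-Cre with Rb1lox/lox, p53lox/lox and SKP2-/-. The second, double knockout (DKO), carried Osx1-Cre, Rb1lox/lox and p53lox/lox with no SKP2 allele named. Every tumour thus carried a Cre recombinase driven by the promoter of Osx1 (also Sp7), a regulator of osteoblast precursors, and floxed alleles of the tumour suppressors Rb1 and p53, while SKP2 was missing from all cells of TKO animals, host cells included. SKP2 is an F-box protein that brings cell cycle inhibitors such as p27 to a ubiquitin ligase for degradation. In each group replicate 1 was a male tumour and replicates 2 and 3 were female tumours. Ages were not given in the labels, nor whether each tumour came from a separate mouse, so every p-value reflects only how these samples spread, and part of that may be technical. The comparison asked which transcripts differ between SKP2-null and SKP2-intact tumours.

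BCL2-type proteins sit on the outer mitochondrial membrane, where they bind and hold back BH3-only proteins and the pore formers BAX and BAK. Once those are free, cytochrome c leaves the mitochondrion and starts the caspase cascade. IAP proteins act later: XIAP blocks active caspases directly, whereas cIAP1 (Birc2) and cIAP2 (Birc3) are ubiquitin ligases of the TNF receptor complex that steer its signal to NF-kB and away from death. Birc2 and Birc3 lie side by side on mouse chromosome 9, and gains of this segment have been described in mouse osteosarcoma and liver tumours. DNA copy number was not measured in the data used here.

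Library depth ran from 17063231 to 22488819 gene counts. Levels are given as CPM, the counts of a gene scaled to 1e6 counts of the effective library size, which is the total multiplied by a TMM scaling factor. Skp2 had 0 counts in TKO1, TKO2 and TKO3, against 20, 64 and 46 counts in DKO1, DKO2 and DKO3. TKO tumours held more RNA of other cell types: the summed level of 10 macrophage markers was 816 to 2555 CPM in TKO and 9.28 to 124 CPM in DKO. The sum of 6 endothelial markers was 152 to 755 CPM in TKO and 8.86 to 10.5 CPM in DKO, and that of 7 skeletal muscle markers was 342 to 10082 CPM in TKO and 4.76 to 11.9 CPM in DKO. For 5 erythroid markers the sum was 88.5 to 1163 CPM in TKO and 0.496 to 1.27 CPM in DKO, so DKO samples held almost no red cell RNA. Osteoblast markers were uneven. Each of the 7 was higher in TKO2 and TKO3 than in any DKO tumour, though 0 of the 6 tested passed the threshold given below. Alpl had 1520 and 2038 CPM in TKO2 and TKO3, against 0.0831 CPM in TKO1 and at most 18.0 CPM in DKO. For Ibsp, TKO2 and TKO3 had 389 and 3890 CPM, against at most 22.8 CPM in DKO. Runx2 was present in all 6 tumours, but Ibsp was at 0 in TKO1, DKO2 and DKO3 and Sp7 at 0 in TKO1 and DKO2, and Col1a1 had 208 CPM in TKO1 against at least 9912 CPM in each other tumour. TKO1 was least like the rest of its group, with a correlation of log2 CPM across genes of 0.83 with TKO2 and 0.81 with TKO3, against 0.91 between TKO2 and TKO3. In these bulk samples, fewer cells of a type and less RNA per cell cannot be told apart. The groups differed in RNA of blood, vessel, muscle and immune cells as well as in SKP2. For any gene below, a TKO to DKO difference cannot be told apart from that difference in content.

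None of the 7 tested survival and IAP genes passed the threshold between TKO and DKO. The test was edgeR's quasi-likelihood test with Benjamini-Hochberg adjustment over all 15361 genes and a threshold of 0.05, by which 7.36% of all genes passed (4.89% higher and 2.47% lower in TKO). DESeq2 and limma-voom also called 0 of the 7, and at an unadjusted p under 0.05 edgeR had 1 of 7, against 25% of all genes. The log2 fold changes, TKO over DKO, ran from -0.44 to 1.25, with a median of 0.16 beside 0.09 over all genes tested. Of the 7 genes 4 lay higher and 3 lower in TKO. Only for Xiap did the TKO values and the DKO values not overlap, which was so for 32.9% of all genes (17.3% higher in TKO). Without TKO1 or without TKO3 the count of passing genes was also 0, and the median log2 fold change was 0.32 and -0.29, in that order.

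**Figure D1:**
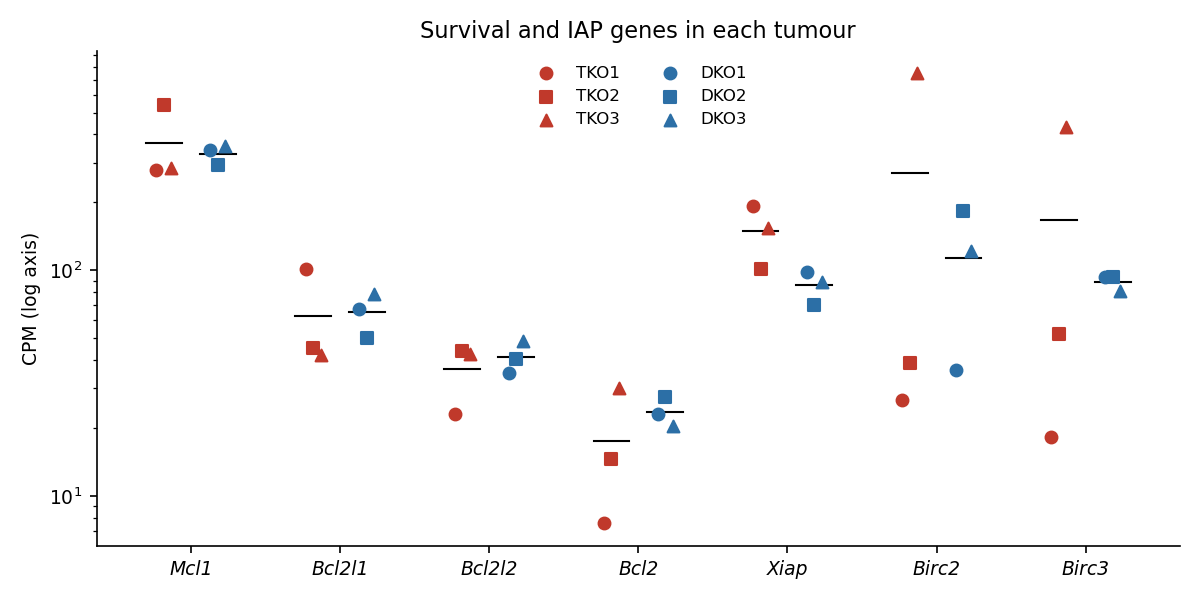
CPM of the 7 tested genes in each tumour, on a log axis, with TKO tumours in red left of DKO tumours in blue; black bars are group means and symbols give the replicate number. Birc2 and Birc3 were highest in TKO3, at 748 and 433 CPM, while the DKO values of Birc3 lay between 80.6 and 93.5 CPM.

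Mcl1, whose short-lived protein guards against BAK and is needed by many cell types, was the most abundant BCL2-type transcript per kilobase of exon in every tumour. It had 278, 538 and 284 CPM in TKO1, TKO2 and TKO3, against 340.4, 294 and 354 CPM in DKO1, DKO2 and DKO3. The groups overlapped, and TKO2 alone was above all DKO tumours. Means were 367 ± 149 CPM in TKO and 329 ± 31.7 CPM in DKO (SD, n = 3 each), a log2 fold change of 0.16 (SE 0.35, adjusted p = 0.817 by edgeR). Its sign turned without TKO2, at -0.22. The gene lies on chromosome 3 (95658788 to 95663176, GRCm38, plus strand), and no exon base is shared with another annotated gene.

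Bcl2l1, on chromosome 2 (152780668 to 152831728, minus strand), codes for BCL-XL, a guard of both pore formers. Its levels were 101, 45.4 and 41.9 CPM in TKO1, TKO2 and TKO3, against 67.5, 50.2 and 78.8 CPM in DKO1, DKO2 and DKO3. TKO1 was the highest of the 6 tumours and the other 2 TKO tumours were the lowest. The means, 62.7 ± 33.1 CPM in TKO and 65.5 ± 14.4 CPM in DKO, differed by less than the spread within either group (log2 fold change -0.06, SE 0.41, edgeR adjusted p = 0.943). Gene counts do not separate the long, protective splice form from the short form that promotes death.

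Bcl2l2, which codes for BCL-W, had 23.0, 43.9 and 42.5 CPM in TKO1, TKO2 and TKO3, against 34.9, 40.3 and 48.7 CPM in DKO1, DKO2 and DKO3. TKO1 was the lowest tumour and the others lay close together. The gene is on chromosome 14 (54883377 to 54888234, plus strand). The log2 fold change was -0.18 (SE 0.34, edgeR adjusted p = 0.784), and 0.060 without TKO1. Of its exon bases 13.3% are shared with the overlapping gene Gm20521, so reads there were counted for neither.

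Bcl2, the founding member of the family, on chromosome 1 (106538178 to 106714274, minus strand), was the lowest of the 4 tested BCL2-type genes per kilobase. Levels were 7.56, 14.6 and 30.1 CPM in TKO1, TKO2 and TKO3, against 23.0, 27.5 and 20.3 CPM in DKO1, DKO2 and DKO3. Both the lowest and the highest value came from TKO tumours, a 3.99-fold range, while DKO values spanned 1.35-fold. The log2 fold change of -0.44 (SE 0.52) did not pass (edgeR adjusted p = 0.637), and it was -1.08 without TKO3. Over all tested genes with no zero, the median ratio of highest to lowest was 2.24 among TKO tumours and 1.65 among DKO tumours.

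Per kilobase, Mcl1 made up 74.4, 87.9 and 79.0% of the summed level of the 5 BCL2-type genes in TKO1, TKO2 and TKO3, against 79.9, 78.9 and 77.4% in DKO1, DKO2 and DKO3. The Mcl1 share in TKO thus ran both below and above the narrow DKO range. Bcl2l1 took most of the remainder in TKO1, at 20.1%, and 5.52 and 8.67% in TKO2 and TKO3, against 11.8, 10.1 and 12.8% in DKO1, DKO2 and DKO3. The share of Bcl2 stayed at or under 3.12% in every tumour.

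**Figure D2:**
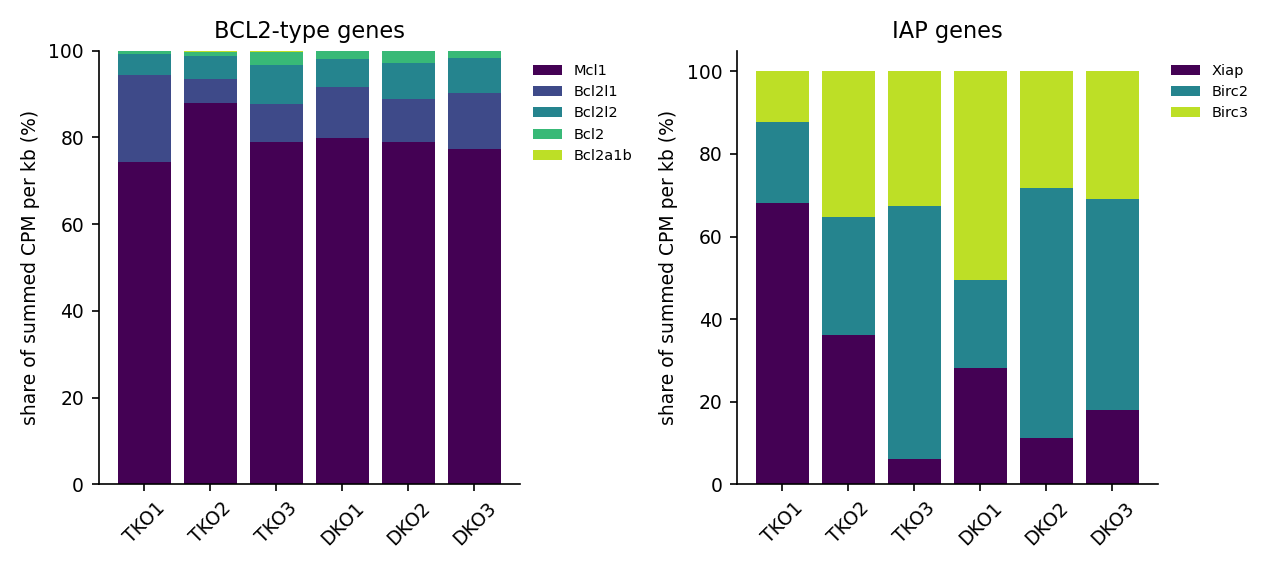
Share of each gene in the summed CPM per kilobase of exon of its family, per tumour, in percent, with the 5 BCL2-type genes on the left, the 3 IAP genes on the right, and TKO tumours before DKO tumours. Mcl1 filled 74.4 to 87.9% of the BCL2-type sum in all 6 tumours, whereas the leading IAP gene was Xiap in TKO1 and TKO2, Birc3 in DKO1 and Birc2 in TKO3, DKO2 and DKO3.

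Bcl2a1b is 1 of several near-identical mouse copies of A1, a BCL2-type gene that NF-kB switches on in leukocytes. The first 240 coding bases of 3 copies, as GENCODE M21 gives them, show why reads are hard to place. Bcl2a1a lies at chr9:88957051-88957290 (plus strand, GRCm38), Bcl2a1b at chr9:89199360-89199599 (plus strand) and Bcl2a1d at chr9:88731480-88731719 (minus strand). Capitals mark bases that differ from Bcl2a1a, 6 in Bcl2a1b and 5 in Bcl2a1d.
Bcl2a1a: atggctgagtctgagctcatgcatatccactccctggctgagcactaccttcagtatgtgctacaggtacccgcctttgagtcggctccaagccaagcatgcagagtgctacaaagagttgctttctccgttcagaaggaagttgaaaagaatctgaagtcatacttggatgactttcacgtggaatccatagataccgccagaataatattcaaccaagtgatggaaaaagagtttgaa
Bcl2a1b: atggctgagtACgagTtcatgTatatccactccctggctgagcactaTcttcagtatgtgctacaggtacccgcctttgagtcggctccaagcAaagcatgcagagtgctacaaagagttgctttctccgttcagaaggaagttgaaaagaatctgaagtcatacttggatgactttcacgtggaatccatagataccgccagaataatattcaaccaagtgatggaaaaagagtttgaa
Bcl2a1d: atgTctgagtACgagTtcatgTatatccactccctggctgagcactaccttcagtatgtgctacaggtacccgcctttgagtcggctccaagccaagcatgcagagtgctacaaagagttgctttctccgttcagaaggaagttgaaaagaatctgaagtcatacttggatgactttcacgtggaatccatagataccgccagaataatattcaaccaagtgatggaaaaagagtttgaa
From base 95 to base 240 the 3 copies are identical. Over whole transcripts, Bcl2a1b matches Bcl2a1a at 97.9% of aligned positions and Bcl2a1d at 93.9%. Of all 50-base windows of the Bcl2a1b transcript, 57.6% also occur in another A1 copy, and 49.1% of its exon bases are shared with an overlapping annotated gene, Gm29094. For Bcl2a1a the share of windows that occur in another A1 copy was 69.0%, and for Bcl2a1d 79.5%, though both had more counts than Bcl2a1b. Reads that match several places or several genes were left out of the gene counts, so counts of each copy are uncertain. Why Bcl2a1b had fewer counts than these copies was not tested.

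For Bcl2a1b, 0, 7 and 3 counts came from TKO1, TKO2 and TKO3, against 0 counts in each DKO tumour, and was not tested. Scaled by library size, the 10 TKO counts are at least 2.93-fold higher than DKO, where a group total of 3 counts served as the floor. In a fit with no filter on low counts, Bcl2a1b did not pass (log2 fold change 4.71, edgeR adjusted p = 0.335). Its sister copies had more counts. For Bcl2a1a, 83, 112 and 74 counts came from TKO1, TKO2 and TKO3, against 0 in each DKO tumour, and rose at least 78.7-fold (edgeR adjusted p = 0.0182). For Bcl2a1d, 109, 92 and 29 counts came from TKO1, TKO2 and TKO3, again against 0 in each DKO tumour, and rose at least 67.3-fold (edgeR adjusted p = 0.026). Levels in TKO were 4.20 ± 1.04 CPM for Bcl2a1a and 3.47 ± 1.73 CPM for Bcl2a1d (SD, n = 3). With the 3 copies summed as 1 gene, counts were 192, 211 and 106 in TKO1, TKO2 and TKO3 and 0 in each DKO tumour (edgeR adjusted p = 0.0155). Bcl2a1a, Bcl2a1d and the sum passed the count filter through their TKO counts alone, so these p-values are descriptive only. With at least 1 CPM required in some tumour of each group, neither copy was tested. Bcl2a1c was listed at 0 in all tumours, and Bcl2l10, a further survival gene, had 0 counts in TKO and 3 in DKO.

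Pan-leukocyte transcripts, like Bcl2a1a and Bcl2a1d, were higher in TKO than in DKO tumours. Every TKO value lay above every DKO value for 17.3% of all tested genes. Ptprc, the pan-leukocyte CD45 gene, had 20.8, 94.7 and 88.0 CPM in TKO1, TKO2 and TKO3, against 0, 0.153 and 0 CPM in DKO1, DKO2 and DKO3. All 5 pan-leukocyte markers and 9 of 10 macrophage markers passed, each higher in TKO, and C1qa, C1qb and C1qc were at 0 in every DKO tumour. Of 6 neutrophil markers 4 rose, with sums of 14.7 to 48.9 CPM in TKO and 0.865 to 2.08 CPM in DKO. The part of leukocyte content in the A1 difference was not tested. The order of tumours was not the same: TKO1 had the lowest Ptprc of the TKO tumours, but TKO3 the lowest summed A1 counts. The call was lost for Bcl2a1a without TKO3 (adjusted p = 0.0527), DKO1 (0.0627), DKO2 (0.0703) or DKO3 (0.0709), and for Bcl2a1d also without TKO2 (0.0685), TKO3 (0.0501), DKO1 (0.0795), DKO2 (0.0883) or DKO3 (0.0889), all by edgeR.

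**Figure D3:**
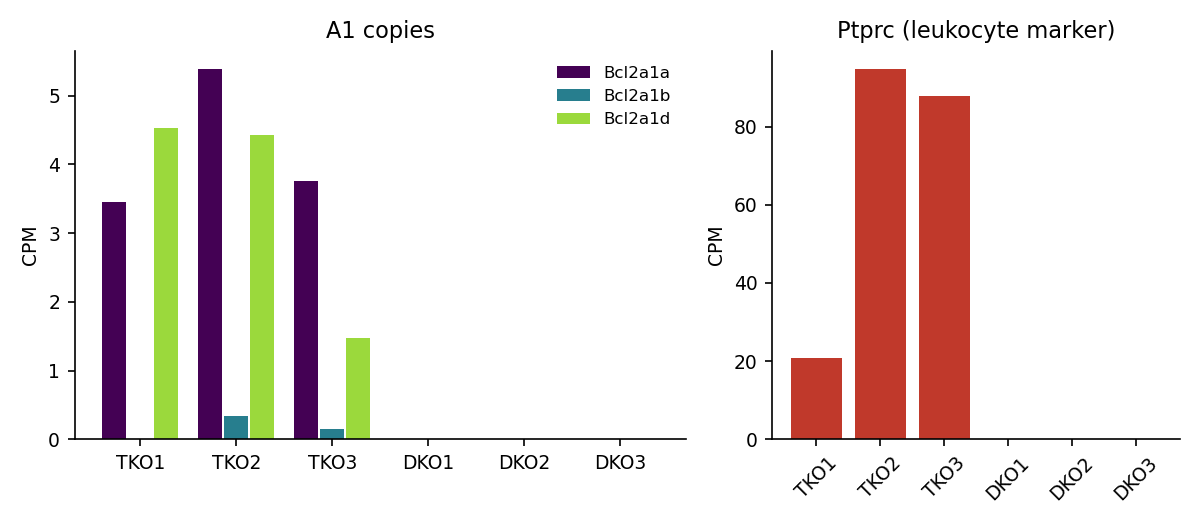
CPM of the A1 copies Bcl2a1a, Bcl2a1b and Bcl2a1d in each tumour (left) and of the leukocyte gene Ptprc (right), each bar 1 tumour. The A1 copies were at 0 in all DKO tumours, and Ptprc was at or under 0.153 CPM there.

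Xiap, the direct caspase inhibitor, came nearest to a difference. It had 192, 102 and 153 CPM in TKO1, TKO2 and TKO3, against 98.5, 70.4 and 88.4 CPM in DKO1, DKO2 and DKO3. Every TKO tumour lay above every DKO tumour, though TKO2 exceeded DKO1 only slightly. Means were 149 ± 45.6 CPM in TKO and 85.8 ± 14.3 CPM in DKO (SD, n = 3 each), 1.74-fold (log2 fold change 0.80, SE 0.32). The unadjusted p was 0.0402 and the adjusted p 0.178 by edgeR, and 0.134 by DESeq2. Xiap lies on the X chromosome (42059679 to 42109656), and in each group the male tumour, TKO1 and DKO1, had the highest value. With sex as a covariate the log2 fold change was 0.78 (edgeR adjusted p = 0.144).

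**Figure D4:**
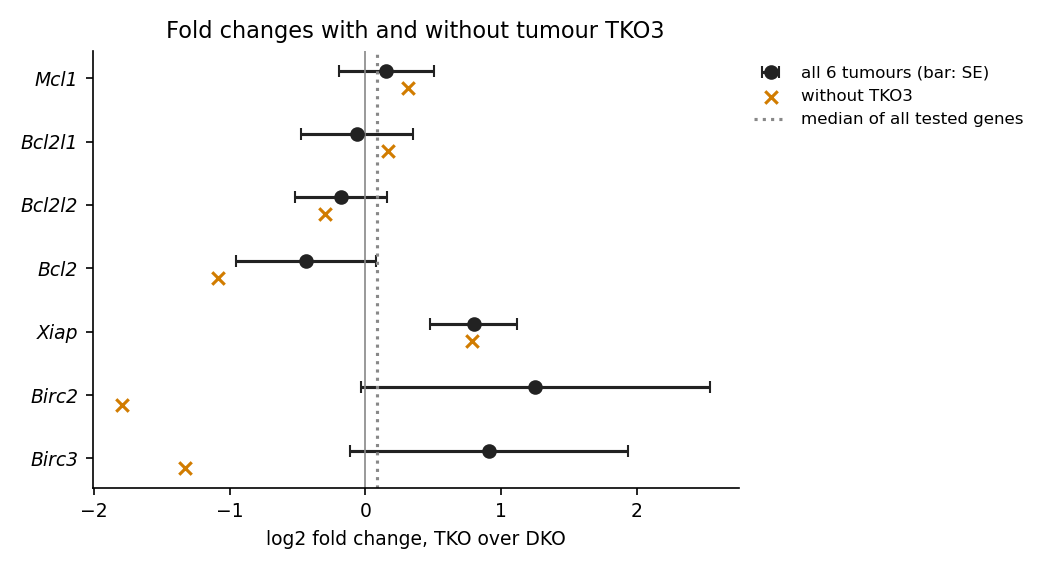
Log2 fold change, TKO over DKO, of the 7 tested genes with all 6 tumours (dots, bars are the SE) and without TKO3 (crosses); the dotted line is the median of all tested genes, 0.09. Birc2 and Birc3 moved to -1.79 and -1.33 without TKO3, while Xiap kept a positive value.

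Birc2, on chromosome 9 (7818227 to 7837064, minus strand), varied more than any other tested gene of the list. It had 26.6, 38.7 and 748 CPM in TKO1, TKO2 and TKO3, against 36.2, 183 and 122 CPM in DKO1, DKO2 and DKO3. TKO3 stood 4.08-fold above the next tumour, DKO2, while TKO1 and TKO2 lay with DKO1 at the low end. Group means of 271 ± 413 CPM in TKO and 114 ± 73.8 CPM in DKO (SD, n = 3 each) gave a log2 fold change of 1.25 with an SE of 1.28 (edgeR adjusted p = 0.584). That SE was larger than those of 93.1% of all tested genes. Without TKO3 the log2 fold change was -1.79 (edgeR adjusted p = 0.206), so the direction rests on that tumour.

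Birc3, itself a target of NF-kB, lies next to it (7848699 to 7873186, minus strand). It had 18.3, 52.4 and 433 CPM in TKO1, TKO2 and TKO3, against 93.5, 93.2 and 80.6 CPM in DKO1, DKO2 and DKO3. The DKO tumours were nearly alike, within 1.16-fold, and the TKO tumours lay on both sides of them over a 23.7-fold range. Means were 168 ± 230 CPM in TKO and 89.1 ± 7.35 CPM in DKO (log2 fold change 0.91, SE 1.02, edgeR adjusted p = 0.617). Without TKO3 the log2 fold change was -1.33 (unadjusted p = 0.035, adjusted p = 0.192). Among DKO tumours the high Birc2 of DKO2 and DKO3 came without a higher Birc3: the ratio of Birc2 to Birc3, per kilobase, was 1.59, 0.808 and 1.89 in TKO1, TKO2 and TKO3, against 0.424, 2.15 and 1.65 in DKO1, DKO2 and DKO3.

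The sequences before the start sites of Birc2 and Birc3 are shown because the genes are neighbours that were high together in TKO3 but not in DKO2 or DKO3. Each is the 250 bases before a RefSeq start (GRCm38.p6, minus strand), 1 of 2 listed for Birc2 and the only 1 for Birc3. Birc2 is at chr9:7837058-7837307 and Birc3 at chr9:7873171-7873420. Capitals mark the CRE motif TGACGTCA.
Birc2: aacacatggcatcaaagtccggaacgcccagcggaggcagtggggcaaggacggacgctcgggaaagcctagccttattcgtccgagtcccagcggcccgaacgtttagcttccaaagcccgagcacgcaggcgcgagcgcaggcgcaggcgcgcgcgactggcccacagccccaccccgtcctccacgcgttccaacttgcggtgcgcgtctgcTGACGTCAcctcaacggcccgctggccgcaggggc
Birc3: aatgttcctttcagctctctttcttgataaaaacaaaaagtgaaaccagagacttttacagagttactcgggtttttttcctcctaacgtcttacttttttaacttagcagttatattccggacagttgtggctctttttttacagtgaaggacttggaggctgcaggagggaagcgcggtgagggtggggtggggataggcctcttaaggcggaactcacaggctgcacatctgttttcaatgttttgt
The motif begins 35 bases before the Birc2 start, is absent from the Birc3 window, and is found, on either strand, in 1.55% of 32851 such windows. A match to the NF-kB consensus motif, present on either strand in 3.90% of windows, was found in neither. The Birc2 window has 68.4% G and C and the Birc3 window 43.6%, against a median of 52.4%. These matches describe letters only.

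Genes beside Birc2 and Birc3 were also high in TKO3. All tested genes that start within 2 Mb of Birc2 were examined, a window chosen after the Birc2 values were seen. Of the 15 other genes there, 7 had at least 4 times the level of the next highest tumour in TKO3, against 0.892% of all tested genes, and 0 had so in any other tumour, where the share of all tested genes was 1.06% in TKO1, 0.762% in TKO2, 0.221% in DKO1, 0.208% in DKO2 and 0.137% in DKO3. The 7 were Pdgfd, Dcun1d5, Mmp13, Mmp8, Tmem123, Yap1 and Cfap300. Yap1, the transcriptional co-activator of the Hippo pathway, had 67.6, 102 and 2903 CPM in TKO1, TKO2 and TKO3, against 118, 156 and 127 CPM in DKO1, DKO2 and DKO3. Tmem123, on the other side of Birc2, had 176, 181 and 4534 CPM in TKO1, TKO2 and TKO3, against 223, 265 and 218 CPM in DKO1, DKO2 and DKO3. In both, TKO3 was far above the other 5 tumours, which spanned 176 to 265 CPM for Tmem123 and 67.6 to 156 CPM for Yap1. Relative to the median of the other 5 tumours, TKO3 was 18.8-fold higher for Dcun1d5, a cofactor of cullin neddylation, 20.8-fold for Tmem123, 19.3-fold for Birc2, 24.7-fold for Yap1 and 24.7-fold for Cfap300, but 5.37-fold for Birc3. Others were spread more widely, at 107-fold for Mmp8, 78.9-fold for Mmp13, 14.6-fold for Pdgfd and 8.92-fold for Trpc6, which were uneven or low in the other tumours.

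The neighbours were not uniform. Mmp13, a collagenase of bone and cartilage, reached 17606 CPM in TKO3, with 4.32 and 2212 CPM in TKO1 and TKO2 and 192 to 3540 CPM in DKO tumours. Mmp3, coding for stromelysin within the same stretch, had 0.581, 26.6 and 4.83 CPM in TKO1, TKO2 and TKO3, against 4410, 1073 and 2039 CPM in DKO1, DKO2 and DKO3. Mmp12, Mmp10 and Mmp27 showed no excess either, with TKO3 at 0.225, 0.656 and 0.957 times the median of the others. Trpc6 was higher in TKO2 (3.99 CPM) than in TKO3 (3.10 CPM). The excess was smaller for some genes: TKO3 was 2.85-fold above the median of the others for Dync2h1, a ciliary dynein gene that starts beside Dcun1d5, 4.23-fold for Cep126 and 1.42-fold for Arhgap42, the gene farthest from Birc2 on the Yap1 side. Of 1132 windows of 1 Mb with at least 5 tested genes, the one that holds Birc2 and Birc3 had the largest share of genes at least 4 times the next tumour in TKO3, with 6 of 11 genes (54.5%), and the next largest share was 20%. Birc2 and Birc3, whose values prompted the search, are 2 of the 6, and without them the share was 4 of 9 genes (44.4%). TKO3 is a single tumour, so these values have no replicate, and whether its DNA carried extra copies was not measured.

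**Figure D5:**
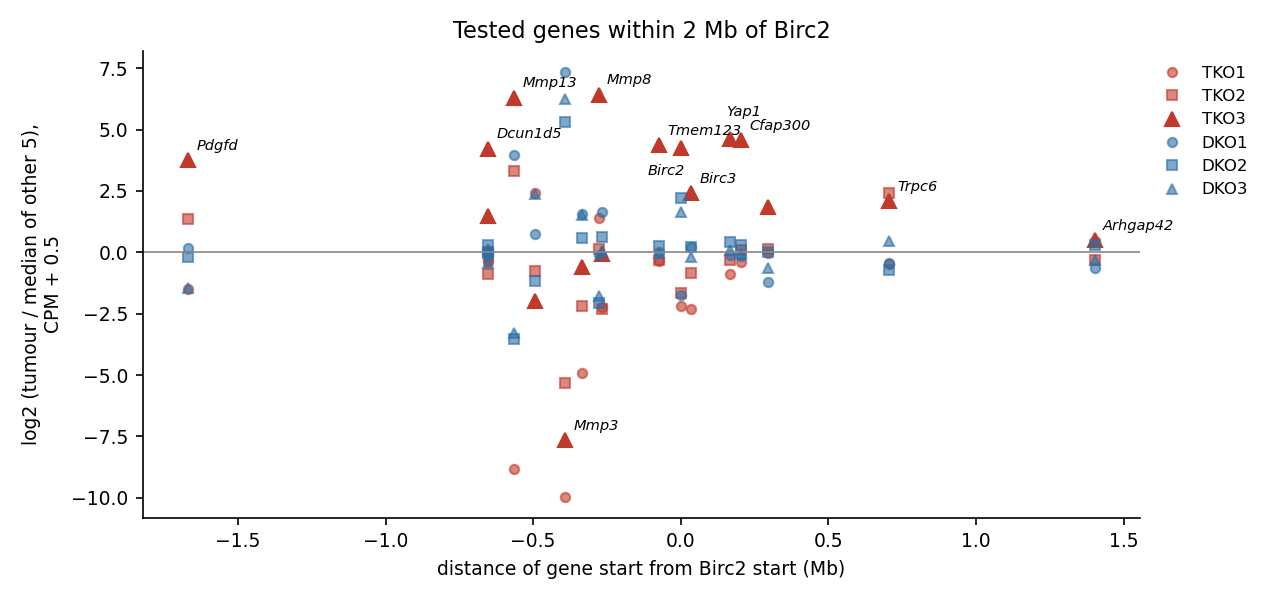
Level of each tested gene within 2 Mb of Birc2 in each tumour relative to the median of the other 5, as log2 of CPM + 0.5, against the distance of its start from that of Birc2; TKO3 is the large triangle. Dcun1d5, Tmem123, Birc2, Yap1 and Cfap300 lie at 18.8- to 24.7-fold in TKO3 and Mmp8 and Mmp13 higher, while Arhgap42 lies near the other tumours.

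Per kilobase of annotated exon, the mean levels in DKO were ordered as Mcl1 (96.3 ± 9.27 CPM per kb), Birc2 (24.8 ± 16.1), Birc3 (17.8 ± 1.47), Bcl2l1 (14.3 ± 3.14), Bcl2l2 (9.25 ± 1.56), Xiap (9.06 ± 1.51) and Bcl2 (2.58 ± 0.394; SD, n = 3). In TKO the means were 107 ± 43.5 for Mcl1, 59.2 ± 90.1 for Birc2, 33.5 ± 46.0 for Birc3, 15.7 ± 4.82 for Xiap, 13.7 ± 7.22 for Bcl2l1, 8.18 ± 2.61 for Bcl2l2 and 1.90 ± 1.26 CPM per kb for Bcl2. Mcl1 lay above every other member, and Bcl2 below every other tested member, in each DKO tumour. Birc2 overlapped Birc3, Bcl2l1, Bcl2l2 and Xiap in both groups, and in DKO Bcl2l2 overlapped Xiap and Birc3 overlapped Bcl2l1, which in DKO3 was the higher (17.2 CPM per kb for Bcl2l1 and 16.1 for Birc3). In TKO3 alone, Birc2 (163 CPM per kb) and Birc3 (86.4) exceeded Mcl1 (83.2).

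None of the tested relatives and antagonists of the IAPs passed, but these sets are small and only 7.36% of all tested genes passed. Of 7 other genes with the BIR domain that defines IAPs, 5 were tested and 0 passed by edgeR. At an unadjusted p under 0.05 there was 1 of the 5, against 25% of all tested genes. Birc5, the mitotic survivin gene, had 123, 53.8 and 17.1 CPM in TKO1, TKO2 and TKO3, against 46.9, 55.3 and 56.0 CPM in DKO1, DKO2 and DKO3, so that TKO3, highest for Birc2 and Birc3, was lowest for Birc5. Birc6, a giant ubiquitin-conjugating IAP, was even at 156 ± 40.0 CPM in TKO and 163 ± 20.6 CPM in DKO. Naip5, a sensor of bacterial flagellin in macrophages, averaged 5.55 ± 1.32 CPM in TKO and 0.800 ± 0.538 CPM in DKO (edgeR adjusted p = 0.0672), while Naip2 (adjusted p = 0.800) and Naip6 (0.773) were closer, Naip1 was too low to test and Birc7 was listed at 0. Of 4 IAP antagonists 0 passed by edgeR, and 2 had an unadjusted p under 0.05, beside 7.36% and 25% of all tested genes. Diablo, coding for SMAC, which frees caspases from IAPs, had 1.16, 2.02 and 3.51 CPM in TKO1, TKO2 and TKO3, against 5.06, 11.4 and 6.09 CPM in DKO1, DKO2 and DKO3 (adjusted p = 0.145). These Diablo values are uncertain, since 40.9% of its exon bases overlap other genes. Sept4, whose human splice form ARTS binds XIAP, had 4.15, 20.6 and 106 CPM in TKO1, TKO2 and TKO3, against 0.149, 1.37 and 0.0592 CPM in DKO1, DKO2 and DKO3 (adjusted p = 0.0642). Htra2 and Xaf1 had adjusted p-values of 0.609 and 0.494.

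Among 10 tested BH3-only and effector genes, 1 rose and 0 fell, beside 4.89% of all tested genes higher and 2.47% lower. The median over the 10 was 1.09 on the log2 scale. At an unadjusted p under 0.05 there were 5 of the 10, against 25% of all genes, and 5 of the 10 had TKO and DKO values that did not overlap, against 32.9%. The one that rose was Bmf, a BH3-only gene linked to loss of anchorage, at 16.6, 30.4 and 27.5 CPM in TKO1, TKO2 and TKO3, against 2.08, 2.04 and 3.61 CPM in DKO1, DKO2 and DKO3 (9.62-fold, SE 0.46 on the log2 scale, edgeR adjusted p = 0.0164), a call lost without DKO1 (0.072), DKO2 (0.083) or DKO3 (0.0614). The Bmf values of the groups were far apart.

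In the TNF receptor and NF-kB network in which the cIAPs work, 26 of 27 listed genes were tested, 1 fell and 0 rose, with a median log2 fold change of -0.15. That count is near the share over all tested genes, 2.47% lower in TKO. Of the 26, 6 had an unadjusted p under 0.05 and 9 had values that did not overlap, against 25% and 32.9% of all genes. The gene that fell was Relb, the transcription factor of the non-canonical NF-kB pathway that cIAPs hold in check. Relb had 26.1, 42.3 and 22.5 CPM in TKO1, TKO2 and TKO3, against 89.6, 88.0 and 74.0 CPM in DKO1, DKO2 and DKO3. It fell by 1.47 on the log2 scale (SE 0.32, edgeR adjusted p = 0.0412). TKO3, with the highest Birc2 and Birc3, had the lowest Relb (22.5 CPM), but TKO1, with the lowest Birc2 and Birc3, was close to it (26.1 CPM). A link between Relb and the cIAP genes was not tested. That call was lost without TKO3 (0.100), DKO1 (0.123), DKO2 (0.142) or DKO3 (0.127), under the replicate block (0.0835), with sex as a covariate (0.0528), in female tumours alone (0.0887), and among genes with at least 1 CPM in some tumour of each group (0.0782). Of 5 genes that control turnover of the MCL1 protein, 3 were tested and 0 passed by edgeR (0 unadjusted). Over all tested genes 7.36% passed and 25% had an unadjusted p under 0.05, so 0 of 3 says little. The smallest p was that of Usp9x, a deubiquitinase, with 164 ± 45.3 CPM in TKO and 194 ± 9.52 CPM in DKO (adjusted p = 0.639). Traf5 and March5 were listed at 0 in all 6 tumours. The cause of these zeros was not tested, so they are not read as absence of the transcripts.

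Likeness to each member was measured as the root mean square difference between log2 CPM profiles over the 6 tumours, each centred on its mean. The genes nearest to Xiap were Cox4i1 (0.053 log2 units), Metap2 (0.080) and Mtr (0.081). Nearest to Mcl1 were Ccnq (0.090), Ccm2 (0.10) and Thoc6 (0.12), nearest to Bcl2l2 were Man1b1 (0.061), Med20 (0.067) and Rara (0.076), and nearest to Bcl2l1 were Patl1 (0.12), Lrrfip1 (0.12) and Cacul1 (0.13). Bcl2 was nearest to Eml4 (0.16), Nucb1 (0.18) and Kri1 (0.18). Celsr2 (0.36), P4htm (0.42) and Pyroxd2 (0.46) were nearest to Birc2, and Pcdhb19 (0.31), Adamts10 (0.41) and Cercam (0.46) to Birc3. The measure grows with the range of a gene. Birc2 and Birc3 ranged 28.1-fold and 23.7-fold over the TKO tumours, so their larger distances do not show that similar genes were lacking. Birc2 and Birc3 differed from each other by 0.82 log2 units, more than from any of these.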

How the data were processed

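Per the labels' protocols, polyadenylated RNA from 3 TKO and 3 DKO tumours was read by Illumina HiSeq. The authors deposited raw counts of reads per gene, 1 file per tumour in the layout of STAR's gene counting and 1 table of the series, which held the same values (0 genes differed). STAR 2.6.1 and mm10 are named per the submitters' processing notes, whereas the gene annotation used for counting is not named in any source used here. The column of reads on either strand was used, because the labels' protocols describe no strand mark and the first strand held 50.2 to 51.3% of stranded counts, so reads of a gene and of its antisense partner cannot be separated. The 4 lines of reads in no gene were left out: of reads, 2.53 to 3.20% were unmapped, 3.94 to 4.70% matched more than 1 place, 5.33 to 9.30% lay outside genes and 5.10 to 6.53% were ambiguous between genes.

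IDs were matched to symbols and positions through GENCODE M21 (GRCm38, the assembly of mm10); 55240 of 56196 matched, and the others held at most 0.00885% of counts. Genes were kept by filterByExpr (minimum count 10), scaled by TMM, and tested by edgeR 4.0.16 (R 4.3.3) with robust dispersion, no covariate and Benjamini-Hochberg adjustment. The SE comes from the fold change and the F statistic. The test was checked on simulated data with planted changes larger than that of any tested member. That check does not show whether changes of the members' size would be found. A fold against a group at 0 uses a floor of 3 counts over the group, which covers counting error only. Levels per kilobase use the union of annotated exons. Promoters come from RefSeq (GRCm38.p6), with entries for all 8 genes. Genes were named by rule: all members, A1 copies, other BIR genes and IAP antagonists, up to 4 passing genes per further list or else the one with the smallest p, and the 3 nearest profiles per member. The neighbours of Birc2, Ptprc, C1qa, C1qb, C1qc and the osteoblast genes were named outside that rule, after their values were seen. The result of 1 further list is not reported here. The members and lists were chosen with earlier results of these data known. There were 17 alternative fits, with DESeq2 1.42.0 and limma 3.58.1 among the tools.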

Additional observations from a re-analysis of the deposited data

How the results depend on the processing

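None of the 7 tested members passed under any of 17 alternatives: RLE size factors, library totals, 2 filters, DESeq2, limma-voom, the replicate block, sex as a covariate, female tumours alone, each strand's counts, and leaving out each tumour. The direction turned for Birc2 and Birc3 by limma-voom (-0.027 and -0.27), under the replicate block (-0.12 and -0.38) and without TKO3 (-1.79 and -1.33). It also turned for Bcl2l1 without TKO2 (0.13), TKO3 (0.16) or DKO3 (0.13), for Bcl2l2 without TKO1 (0.060) and for Mcl1 without TKO2 (-0.22). The causes were not tested. With 1 tumour left out, log2 fold changes ran from -1.79 to 1.78 for Birc2, -1.33 to 1.44 for Birc3, -0.59 to 0.16 for Bcl2l1 and -0.32 to 0.060 for Bcl2l2. Bcl2 and Xiap kept their sign in all 17, at -1.08 to -0.09 and 0.56 to 1.02. The 1131 genes called overall became 295 under the replicate block, 158 with at least 1 CPM required in some tumour of each group and 2893 by DESeq2. They ran from 0 to 2385 when 1 tumour was left out, at 39, 2 and 0 without DKO1, DKO2 and DKO3. Fits without a DKO tumour could therefore hardly call any member. Same-numbered tumours did not deviate together over all tested genes (correlations -0.0070, 0.0089 and -0.017), so they were not treated as pairs. A small shared effect could go unseen in these correlations, and replicate 1 was male in both groups. Whether same-numbered tumours shared a batch or litter was not tested. Bcl2a1a and Bcl2a1d lost their calls under the replicate block (0.0904 and 0.0956). With 3 tumours a group and an SE of 0.32 to 1.28 for these members, even changes well above 1 SE could go undetected. Xiap, at a log2 fold change of 0.80 with an SE of 0.32, did not pass (edgeR adjusted p = 0.178).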

Other observations

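Neighbouring genes on the chromosome differed in how they ran with the other members. The 57 tested genes within 2 Mb of Bcl2l1 had a median of -0.31 in TKO1, as log2 of the level over the median of the other 5 tumours, while Bcl2l1 itself was at 1.00 there. The 12 tested neighbours of Bcl2 had a median of -0.03 in TKO1, against -1.55 for Bcl2. The 97 neighbours of Mcl1 were highest in TKO2, with a median of 0.54 there, as was Mcl1 itself (0.87). The 70 neighbours of Bcl2l2 were lowest in TKO1 (-0.44), as was Bcl2l2 (-0.87), and the 2 neighbours of Xiap were highest in TKO1 (0.48), as was Xiap (0.96). In TKO2 the neighbours of Bcl2l1 and Bcl2l2 were also at their highest (0.32 and 0.35), while those of Bcl2 and Xiap were at -0.39 and -0.61. No such median over all tested genes was taken per tumour, so the shifts near Mcl1, Bcl2l2 and Xiap are not read as local. For the 16 tested neighbours of Birc2, Birc3 included, the median was 2.25 in TKO3 and between -0.44 and 0.24 in the other tumours.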
